A study of Mus musculus with 4 samples.

Results

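Fatty acid oxidation and peroxisome genes were read across glomeruli of podocyte Hdac1 and Hdac2 knockout-labelled and control mice. The set holds 34 genes chosen by name from the fatty acid oxidation pathway, and all 34 were found by symbol among the 22809 genes of the deposited table. By the known location of their proteins, 20 were counted as mitochondrial, 10 as peroxisomal and 4 (Ech1, Eci2, Crat and Acsl1) as working in more than 1 place. Slc27a2, also of the endoplasmic reticulum, was counted as peroxisomal, and no alternative moved it. Expression was measured by sequencing poly(A) RNA of freshly isolated glomeruli, the filtering units of the kidney, at 3 weeks of age. The first group was 2 libraries labelled HDAC KO, a podocyte-specific knockout that the series title gives as Hdac1 and Hdac2, both histone deacetylases of corepressor complexes. The second was 2 libraries of wild-type controls with no treatment. Each library pooled 2 mice, the glomeruli were taken in 2 independent experiments, and the driver of the podocyte deletion is not given in the sources used here.

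Fatty acids are burned by beta-oxidation, a cycle that shortens an activated acyl-CoA chain and hands electrons to the respiratory chain. Mitochondria take long chains in through the carnitine shuttle, while peroxisomes start on very long and branched chains, make hydrogen peroxide as they do so, and pass shortened chains on. In the kidney, proximal tubule cells are known for high fatty acid oxidation and abundant peroxisomes, and many genes of both pathways are targets of the nuclear receptor PPAR alpha.

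Values are TPM, reads per gene length brought to a common total per library. The length that fits the values is that of all annotated exons of a gene together, such as 8286 bases for Echs1 and 1516 for Acaa2. It can exceed the length of a transcript, so levels of different genes compare only roughly. Whole reads recovered from the TPM numbered between 17476365 and 20943138 in the HDAC KO-labelled libraries and between 12876939 and 15808117 in the control libraries. Neither target transcript was lower in the HDAC KO-labelled libraries (Hdac1 at 22.9 and 22.5 TPM against 19.3 and 18.6 TPM in control libraries, Hdac2 at 23.5 and 20.9 against 20.2 and 24.1 TPM), so they do not check the labels. The control libraries differ from each other, and the HDAC KO-labelled libraries differ from each other in glomerular markers. Control replicate 2 held 173 TPM of Xist, which is transcribed from the inactive X chromosome of female cells, and at most 0.127 TPM was found in any other library. The 4 Y-linked genes Ddx3y, Eif2s3y, Kdm5d and Uty summed to 73.9 and 72.3 TPM in the HDAC KO-labelled libraries, against 66.1 and 22.6 TPM in control replicates 1 and 2. Proximal tubule transcripts were present in every library. The list of 20 proximal tubule markers, with no member among them, summed to 6001 and 7257 TPM in the HDAC KO-labelled libraries and to 46383 and 11966 TPM in control replicates 1 and 2. No marker of the list was at 0 in any library, and without the androgen-regulated gene Kap the sums were 4997 and 6056 against 15321 and 10978 TPM. Podocyte markers, with all 12 detected in every library, summed to 237 and 485 TPM in the HDAC KO-labelled libraries and to 652 and 1023 TPM in the control libraries. Of the 12, 5 were lower in both HDAC KO-labelled libraries (14.3% of all tested genes were) and 7 overlapped. The 10 endothelial markers summed to 252 and 527 against 314 and 693 TPM, and all overlapped. Podocyte and endothelial sums were thus higher in replicate 2 of each group. The 10 loop, distal tubule and collecting duct markers summed to 2282 and 2650 against 2605 and 2544 TPM, with 6 lower and 1 higher in both. Leukocyte markers, 10 in number, summed to 1751 and 1919 against 135 and 406 TPM.

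Of the 34 members, 22 were lower in both HDAC KO-labelled libraries than in both control libraries, 4 were higher in both and 8 overlapped. Among all 18612 genes with a mean of at least 1 TPM, 14.3% were lower in both and 36.7% higher in both, so the members leaned the other way from the table as a whole. All 34 passed that filter, with the lowest mean at 15.9 TPM for Slc25a20. Of the 34, 27 had a log2 fold change below 0, as did 33.4% of all genes. No member passed limma's test at an adjusted p under 0.05 over all genes, where 0.00537% of genes did (1 gene), and voom on the recovered reads called 0 genes of the whole table. At an unadjusted p under 0.05, 10 members were lower and 0 higher, against 4.46% and 13.4% of all genes. The median log2 fold change of the members, HDAC KO-labelled over control on the log2(TPM + 1) scale, was -0.34, with a range from -1.58 to 0.26. Over all tested genes the median was 0.17 on the deposited values and became -0.03 with median-ratio scaling, so the members' median lay 0.51 below that of all genes (-0.51). In pooled tissue, fewer cells of a type and less RNA per cell cannot be told apart. The proximal tubule markers moved the same way, with 19 of 20 lower in both HDAC KO-labelled libraries and a median log2 fold change of -1.43, or -0.89 without control replicate 1, and their part in the members' difference was not tested.

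**Figure D1:**
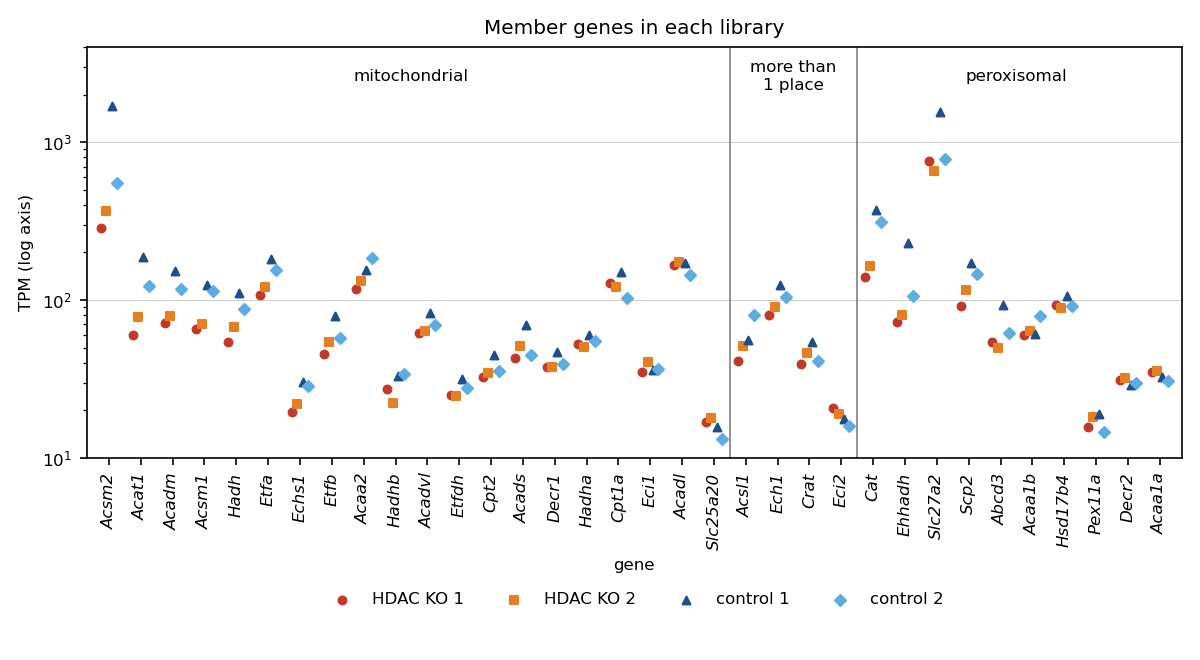
TPM of each of the 34 genes (log axis) in the 4 libraries, 1 point per library, grouped by location and ordered by log2 fold change. Acsm2 and Slc27a2 stand above the rest, and in 22 genes both HDAC KO-labelled points lie under both control points.

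Acyl-CoA synthetases activate fatty acids by joining them to coenzyme A, and all 4 of the set were lower in both HDAC KO-labelled libraries. Acsm2 (chromosome 7, 119554340 to 119600690 in GRCm38, plus strand), a medium-chain synthetase of the mitochondrial matrix and the most abundant mitochondrial member, was at 287 and 364 TPM in HDAC KO-labelled libraries against 1701 and 553 TPM in control replicates 1 and 2. The groups did not overlap, but the control libraries lay as far apart as the groups (1.62 log2 units; log2 fold change -1.58, SE 0.54, limma adjusted p = 0.223). Without control replicate 1 its log2 fold change was -0.77. Acsm1, its neighbour on chromosome 7 (119607026 to 119662515 in GRCm38, plus strand) with the same activity, was at 65.2 and 70.9 TPM against 125 and 114 TPM in control libraries. Here the replicates of each group were close and the change was the same with or without control replicate 1 to within its SE (log2 fold change -0.80, SE 0.16, limma adjusted p = 0.110, and -0.73 without it). Slc27a2 encodes a fatty acid transport protein that is also a very-long-chain acyl-CoA synthetase of peroxisomes and the endoplasmic reticulum. It was at 755 and 653 TPM in HDAC KO-labelled libraries against 1548 and 776 TPM in control libraries, so control replicate 2 was barely above both (log2 fold change -0.64, SE 0.38, and -0.14 without control replicate 1). Acsl1, the long-chain synthetase that feeds the carnitine shuttle, was at 41.1 and 51.1 against 56.2 and 80.9 TPM, and was the member of this class with its higher control value in replicate 2.

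The carnitine shuttle moves long chains into mitochondria and showed no common direction. Cpt1a makes acylcarnitine at the outer membrane and is the rate-limiting step of the pathway. It averaged 124 ± 4.83 TPM in HDAC KO-labelled libraries and 127 ± 34.3 TPM in control libraries (SD, n = 2 each), and the HDAC KO-labelled values of 128 and 121 TPM lay between the control values of 151 and 102 TPM. The SE of its log2 fold change was 0.23. Slc25a20, the carnitine-acylcarnitine carrier of the inner membrane, was at 16.9 and 17.9 TPM against 15.7 and 13.2 TPM in control libraries. It was one of the 4 members higher in both (log2 fold change 0.26, SE 0.19), and 0.03 after median-ratio scaling. Cpt2, which turns acylcarnitine back into acyl-CoA inside, was lower at 32.4 and 34.7 against 44.7 and 35.7 TPM, though by little (-0.25 on the log2 scale, SE 0.18, and -0.087 without control replicate 1). Crat, the short-chain carnitine acetyltransferase of mitochondria and peroxisomes, overlapped at 39.1 and 46.3 against 54.5 and 40.9 TPM.

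The acyl-CoA dehydrogenases take the first step of each mitochondrial cycle and differ by chain length, and among the 4 the medium-chain enzyme differed most in these libraries. Acadm was at 71.1 and 78.8 TPM in HDAC KO-labelled libraries against 154 and 117 TPM in control libraries, with a clear gap between the groups (log2 fold change -0.83, SE 0.19, limma adjusted p = 0.129). Acadvl, for very long chains, was at 61.9 and 63.5 against 82.5 and 69.4 TPM, but 42.9% of its exon bases overlap the opposite-strand gene Dvl2 and the strand setting of the counting is not given in the sources used here. Acads, for short chains, was at 43.0 and 51.4 against 69.4 and 45.0 TPM and overlapped. Acadl, for long chains and the most abundant of the 4 in the HDAC KO-labelled libraries, was at 167 and 173 against 171 and 143 TPM. Its log2 fold change of 0.11 (SE 0.17) was -0.12 after median-ratio scaling.

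The next steps of the mitochondrial cycle were lower in both HDAC KO-labelled libraries throughout, by unequal amounts. Hadh, the 3-hydroxyacyl-CoA dehydrogenase for shorter chains, was at 54.0 and 67.7 TPM in HDAC KO-labelled libraries against 110.5 and 88.0 TPM in control libraries (log2 fold change -0.70, SE 0.20). Echs1, the short-chain enoyl-CoA hydratase, was at 19.7 and 22.0 against 30.4 and 28.3 TPM, with close replicates in both groups (log2 fold change -0.48, SE 0.17). Acaa2, the mitochondrial thiolase that releases acetyl-CoA, was at 118 and 131 against 154 and 184 TPM. Acat1 (chromosome 9, 53580522 to 53610382, minus strand), the acetoacetyl-CoA thiolase of ketone body and isoleucine breakdown, was at 60.3 and 78.5 against 187 and 123 TPM, the biggest difference among these (log2 fold change -1.13, SE 0.26, limma adjusted p = 0.129).

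Hadha and Hadhb encode the alpha and beta subunits of the trifunctional protein, which carries out the last 3 steps for long chains. Hadha was at 53.0 and 50.6 TPM in HDAC KO-labelled libraries against 59.7 and 55.4 TPM in control libraries, and Hadhb at 27.3 and 22.3 against 33.0 and 33.8 TPM. Both were lower in both HDAC KO-labelled libraries, by -0.15 (SE 0.15) and -0.42 (SE 0.18) on the log2 scale, and neither passed the test. The genes lie head to head on chromosome 5, Hadha on the minus strand and Hadhb on the plus strand, and their annotated starts enclose a stretch of only 85 bases from which both subunits are transcribed in opposite directions. The stretch is shown on the Hadhb strand (chr5:30155163-30155247, RefSeq sequence of GRCm38.p6).
Hadha-Hadhb: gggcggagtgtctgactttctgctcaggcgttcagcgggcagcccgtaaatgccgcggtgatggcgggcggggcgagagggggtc
Of the 50-base words of Hadhb transcripts, 19.7% also occur in transcripts of other genes, Gm13910 first among them, so its level is less certain than that of Hadha with 0.341%.

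Electrons from the dehydrogenases pass through the electron transfer flavoprotein to its membrane oxidoreductase, and the genes of all 3 proteins were lower in both HDAC KO-labelled libraries. Etfa was at 108 and 122 TPM in HDAC KO-labelled libraries against 183 and 156 TPM in control libraries (log2 fold change -0.55, SE 0.17, limma adjusted p = 0.199). Etfdh, the oxidoreductase, differed less, at 25.0 and 24.6 against 31.8 and 27.5 TPM. Etfb was at 45.7 and 54.1 against 79.5 and 57.8 TPM, and its level is uncertain because 58.2% of its exon bases also belong to the same-strand gene Gm45233 or to Mir7051.

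Auxiliary enzymes, which prepare unsaturated chains for the cycle, showed small differences apart from Ech1. Decr1, the mitochondrial 2,4-dienoyl-CoA reductase, was at 37.8 and 37.8 TPM in HDAC KO-labelled libraries against 46.9 and 39.3 TPM in control libraries. Eci1, the mitochondrial enoyl-CoA isomerase, was at 34.8 and 40.2 against 35.9 and 36.7 TPM and overlapped. Ech1, the dienoyl-CoA isomerase of both organelles, was lower at 80.0 and 90.6 against 124 and 105 TPM (log2 fold change -0.42, SE 0.17). Eci2, an isomerase of both organelles, was at 20.8 and 18.97 against 17.7 and 15.9 TPM. Decr2, the peroxisomal reductase, was at 31.0 and 32.1 against 28.9 and 29.9 TPM. Eci2 and Decr2 were higher in both HDAC KO-labelled libraries as deposited, but after median-ratio scaling the log2 fold change of Decr2 was -0.13 and that of Eci2 was 0.0046.

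Among the peroxisomal members, 5 of 10 were lower in both HDAC KO-labelled libraries, 2 were higher in both and 3 overlapped. Of all tested genes, 14.3% were lower and 36.7% higher in both. Cat (chromosome 2, 103453849 to 103485160, minus strand) encodes catalase, which breaks down the hydrogen peroxide of peroxisomal oxidation, and had the smallest p of all 34 members. It was at 139 and 163 TPM in HDAC KO-labelled libraries against 369 and 312 TPM in control libraries, with the groups far apart beside the replicate spread (151 ± 17.0 against 340 ± 40.3 TPM, SD, n = 2 each; log2 fold change -1.17, SE 0.19, limma adjusted p = 0.104). The difference did not rest on control replicate 1, since the log2 fold change without it was -1.05. Ehhadh, the bifunctional enzyme for dicarboxylic chains, was at 72.3 and 80.4 against 231 and 107 TPM, and its log2 fold change of -1.03 (SE 0.37) was -0.48 without control replicate 1. Scp2, whose longer product is the thiolase for branched chains, was at 92.1 and 116 against 172 and 146 TPM (log2 fold change -0.61, SE 0.19), though 29.7% of its 50-base words occur in other transcripts, first in its pseudogene Scp2-ps2. Abcd3, a transporter that takes acyl-CoA into peroxisomes, was at 54.3 and 49.6 against 92.4 and 62.1 TPM.

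The other peroxisomal members differed little. Hsd17b4, the second bifunctional enzyme, acting on branched and very long chains, was at 93.2 and 89.5 TPM in HDAC KO-labelled libraries against 106 and 92.0 TPM in control libraries and overlapped. Pex11a, a membrane protein of peroxisome division, was at 15.8 and 18.2 against 18.9 and 14.5 TPM. Acaa1a and Acaa1b, neighbouring genes on chromosome 9 for the peroxisomal thiolase, were at 35.1 and 35.6 against 32.6 and 30.8 TPM and at 59.9 and 63.9 against 60.9 and 79.5 TPM. Acaa1a was higher in both HDAC KO-labelled libraries, a log2 fold change of 0.15 (SE 0.16) that was -0.08 after median-ratio scaling, and Acaa1b overlapped. The thiolase pair shares sequence, with 17.1% of the 50-base words of Acaa1a and 39.6% of those of Acaa1b found in other transcripts, mostly each other's, so reads could be split between them.

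**Figure D2:**
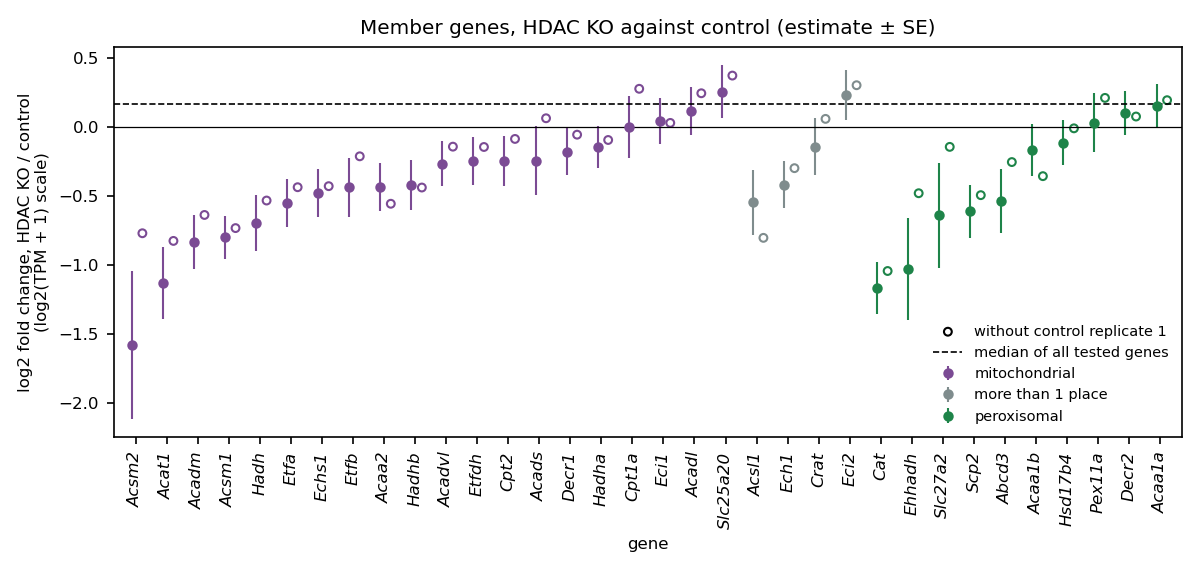
Log2 fold change of each member, HDAC KO-labelled over control, with its SE (filled points, limma on log2(TPM + 1)) and the value without control replicate 1 (open points). The dashed line marks the median of all tested genes at 0.17, and Cat and Acat1 lie below -0.8 in both forms.

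Mitochondrial and peroxisomal members had nearly the same median difference. The median log2 fold change was -0.34 over the 20 mitochondrial and -0.35 over the 10 peroxisomal members, a difference of -0.01 (peroxisomal minus mitochondrial), and that difference was between -0.07 and -0.01 when any 1 library was left out. Its sign was not stable, since it was 0.03 with quantile normalization and 0.05 with the 4 genes of more than 1 place counted as peroxisomal. The peroxisomal median lay in a gap, with no member near it. The 5 peroxisomal members lower in both HDAC KO-labelled libraries ran from -1.17 (Cat) to -0.54 (Abcd3). The rest ran from -0.17 (Acaa1b) to 0.15 (Acaa1a), so the near match of the medians describes neither part. The share lower in both HDAC KO-labelled libraries was 15 of 20 mitochondrial and 5 of 10 peroxisomal members, beside 14.3% of all tested genes. With this few genes and libraries the shares were not tested. Mitochondrial members summed to 1455 and 1627 TPM in HDAC KO-labelled libraries against 3467 and 2022 TPM in control libraries, and peroxisomal members to 1347 and 1301 against 2659 and 1649 TPM. The peroxisomal sum divided by the mitochondrial sum was 0.926 and 0.7995 in HDAC KO-labelled libraries and 0.767 and 0.816 in control libraries, so the groups overlapped. The share of the most abundant gene differed between libraries. Acsm2 made up 19.7% and 22.4% of the mitochondrial sum in HDAC KO-labelled libraries against 49.1% and 27.3% in control libraries, and Slc27a2 made up between 47.1% and 58.2% of the peroxisomal sum in the 4 libraries. With both left out, a choice made after the values were seen, the ratio was 0.507 and 0.513 in HDAC KO-labelled libraries against 0.629 and 0.594 in control libraries. That ratio leaned on Cat. It held 139 and 163 of the 593 and 648 TPM left in the peroxisomal sum of the HDAC KO-labelled libraries. In control libraries it held 369 and 312 of 1111 and 873 TPM. The ratio without Cat was not tested, so these values do not set the 2 classes apart.

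**Figure D3:**
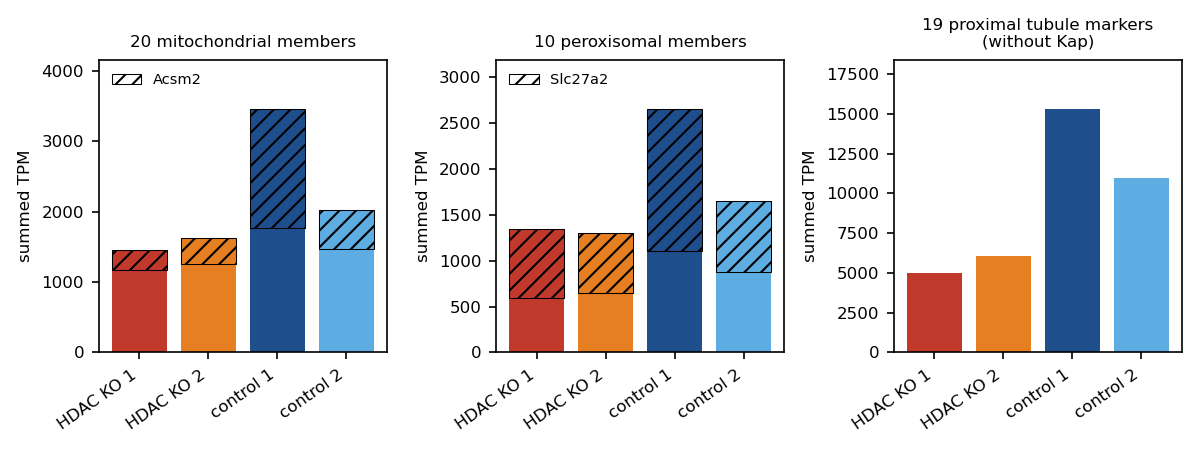
Summed TPM per library of the mitochondrial members, the peroxisomal members and 19 proximal tubule markers, with the share of Acsm2 and of Slc27a2 hatched. Control replicate 1 is highest in all 3 panels, and both HDAC KO-labelled libraries are below both control libraries.

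The members' size of difference depended on which control library was used. The median member was 0.24 log2 units higher in control replicate 1 than in control replicate 2, where the median of all tested genes was -0.28, and 0.13 lower in HDAC KO-labelled replicate 1 than in replicate 2 (-0.13). Acsm2, Ehhadh and Slc27a2 differed most between the control libraries, by 1.62, 1.10 and 0.995 log2 units. Without control replicate 1 the members' median log2 fold change was -0.18, against 0.04 for all genes, and 23 of 34 were still below control replicate 2 in both HDAC KO-labelled libraries, as were 35.2% of all genes. Without control replicate 2 the median was -0.40 and 27 of 34 were below control replicate 1, as were 21.3% of all genes. In that fit of 3 libraries, where the lone control library is assumed to vary like the HDAC KO-labelled libraries, 8 members passed as lower by limma at an adjusted p under 0.05 (Acsm2, Ehhadh, Cat, Acat1, Acadm, Acsm1, Slc27a2 and Abcd3) and 3.01% of all genes did. The same library held the highest proximal tubule sum and the most Kap transcript, 31062 TPM against 987 TPM in control replicate 2. Summed over all members and divided by the proximal tubule sum without Kap, the level was 0.597 and 0.518 in HDAC KO-labelled libraries against 0.416 and 0.356 in control libraries, so this ratio was higher in both HDAC KO-labelled libraries.

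PPAR alpha acts with RXR on the DR1 element, a direct repeat of the hexamer AGGTCA with any 1 base between the copies. It was searched on both strands, with up to 2 letters allowed to differ, in 300 bases around each start (250 before and 50 after, RefSeq promoters of GRCm38.p6). Of the 29 members matched by symbol, all but Acat1, Decr1, Crat, Hsd17b4 and Acaa2, 4 held a match, in 4 of 32 promoters (12.5%) against 3.86% of all 32851 promoters. Those of Cat, Etfa and Echs1 are shown because they lay before the annotated start. The match is in capitals and differs from the motif by 2 letters in each. In Cat and Echs1 it reads as the motif is written, and in Etfa as the reverse complement of the motif. Each stretch reads along the gene's own strand, the minus strand of the genome (Cat at chr2:103485284-103485403, Etfa at chr9:55512247-55512366 and Echs1 at chr7:140116477-140116596).
Cat: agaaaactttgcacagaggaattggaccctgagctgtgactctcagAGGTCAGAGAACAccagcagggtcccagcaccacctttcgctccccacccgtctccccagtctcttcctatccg
Etfa: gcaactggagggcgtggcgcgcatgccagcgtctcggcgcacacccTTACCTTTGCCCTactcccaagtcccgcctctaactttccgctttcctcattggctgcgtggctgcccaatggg
Echs1: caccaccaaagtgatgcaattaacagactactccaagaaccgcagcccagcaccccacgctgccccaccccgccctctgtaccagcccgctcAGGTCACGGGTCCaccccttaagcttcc
The fourth match, in Slc25a20, began 6 bases after the start and is not shown. Cat, Etfa and Echs1 were lower in both HDAC KO-labelled libraries, while Slc25a20 was higher in both. A match describes letters in a window and does not show binding.

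Other genes of the same pathways leaned like the members. Among all genes, 14.3% were lower and 36.7% higher in both HDAC KO-labelled libraries. At an unadjusted p under 0.05 by limma, 4.46% of all genes were lower and 13.4% higher. Of 31 further fatty acid oxidation genes, 28 were tested, 0 passed limma's threshold (at an unadjusted p under 0.05, 10 lower and 2 higher), 19 were lower and 4 higher in both HDAC KO-labelled libraries, and the median log2 fold change was -0.45, or -0.23 without control replicate 1. Slc22a5, the carnitine importer OCTN2, was at 93.4 and 91.6 TPM in HDAC KO-labelled libraries against 205 and 133 TPM in control libraries (log2 fold change -0.83, SE 0.24, and -0.52 without control replicate 1). Pccb, a subunit of propionyl-CoA carboxylase, was at 93.6 and 99.8 against 150.5 and 113 TPM, the thioesterase gene Acot13 at 64.6 and 82.4 against 107 and 109 TPM, and Acss1, the mitochondrial acetyl-CoA synthetase, at 145 and 148 against 164 and 191 TPM. Of 51 further peroxisome genes, 46 were tested, 0 passed (unadjusted, 7 lower and 0 higher), 25 were lower and 4 higher in both, and the median was -0.24, or -0.16 without control replicate 1. Hao2, a peroxisomal hydroxyacid oxidase, was at 98.6 and 109 against 269 and 430.0 TPM, and its log2 fold change of -1.70 (SE 0.26, limma adjusted p = 0.0988) was larger without control replicate 1, at -2.04. The antioxidant gene Prdx5 was at 209 and 208 against 465 and 261 TPM and Idh1, an NADP-dependent isocitrate dehydrogenase, at 237 and 236 against 279 and 279 TPM.

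Of 19 regulators tested, 10 were lower and 4 higher in both HDAC KO-labelled libraries, beside 14.3% and 36.7% of all genes, and 16 of 19 had a log2 fold change below the median of all genes. None passed limma's threshold (unadjusted, 1 lower and 1 higher). Ppara itself was at 34.5 and 39.5 TPM in HDAC KO-labelled libraries against 36.9 and 44.6 TPM in control libraries and overlapped, as did Rxra, Ppargc1b and Sirt1. Hnf4a, the epithelial nuclear receptor of the proximal tubule and itself abundant there, was at 189 and 228 against 316 and 256 TPM. The coactivator gene Ppargc1a was at 43.5 and 42.9 against 46.6 and 61.9 TPM and Esrra, a nuclear receptor of mitochondrial genes, at 27.9 and 32.7 against 50.3 and 35.8 TPM. Also lower in both were Esrrg, Ppard, the phosphatase and coactivator gene Lpin1 (log2 fold change -0.70, SE 0.19), the deacetylase gene Sirt3, the AMP kinase subunit gene Prkaa2, and the acetyl-CoA carboxylase genes Acaca and Acacb. Higher in both as deposited were Pparg, at 2.18 and 3.40 against 0.759 and 1.33 TPM, Prkaa1, Rxrb and Ncor1, of which Rxrb (-0.02) and Ncor1 (-0.15) were negative after median-ratio scaling.

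PPAR alpha targets outside the member list had a median above 0. Of 15 tested, 9 were higher and 3 lower in both HDAC KO-labelled libraries, beside 36.7% and 14.3% of all genes. At an adjusted p under 0.05 by limma 0 passed (unadjusted, 6 higher and 2 lower), and the list's median was 0.32 on the deposited values, 0.09 with median-ratio scaling and 0.52 without control replicate 1. On the deposited values it lay 0.16 above the median of all genes. The most abundant, Txnip, a glucose-responsive inhibitor of thioredoxin, was at 459 and 340.9 TPM in HDAC KO-labelled libraries against 248 and 259.85 TPM in control libraries, while the fatty acid omega-hydroxylase genes Cyp4a10 and Cyp4a31 were lower, at 79.9 and 64.9 against 112 and 183 TPM and at 119 and 105 against 165 and 166 TPM. The following genes were chosen after their values were seen. Pdk4, the kinase that shuts off pyruvate dehydrogenase, was at 48.2 and 44.2 TPM in HDAC KO-labelled libraries against 10.05 and 14.5 TPM in control libraries (log2 fold change 1.85, SE 0.23, limma adjusted p = 0.0928). Plin2, which coats lipid droplets, was at 50.7 and 48.7 against 12.4 and 16.1 TPM (1.75, SE 0.19), and Angptl4, a secreted inhibitor of lipoprotein lipase, at 35.4 and 37.0 against 10.7 and 12.8 TPM (1.55, SE 0.19). Ucp2, a mitochondrial carrier, was at 74.1 and 78.5 against 27.7 and 34.1 TPM. In each of these 4 genes both HDAC KO-labelled values were well above both control values, and the log2 fold changes without control replicate 1 were between 1.14 and 1.60. Leukocyte markers were also higher in both HDAC KO-labelled libraries, in 10 of 10 cases, and their part in these values was not tested.

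**Figure D4:**
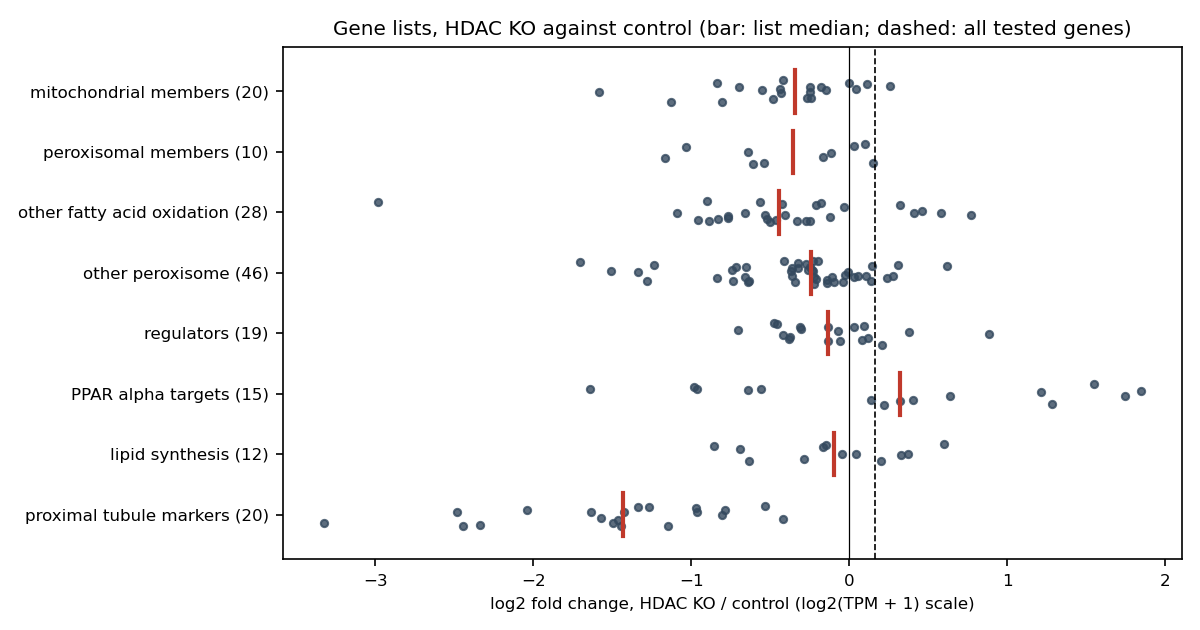
Log2 fold change of each tested gene, HDAC KO-labelled over control, by list, with the list median as a bar and the median of all tested genes (0.17) as a dashed line. Both member classes, the other oxidation genes and the proximal tubule markers have medians below 0, and the PPAR alpha targets spread to both sides.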

How the data were processed

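TPM values of 22809 genes, identified by Ensembl ID, were deposited by the authors as 1 table with a column per library, matched to samples by name. GRCm38.p6 is the build and STAR 2.7.9, featureCounts 2.0.0, fastp 0.20 and DESeq2 1.30.1 are the tools listed, with no role or order, per the submitters' processing notes. Annotation, gene filter and strand setting were not given in the sources used here. TPM times the union exon length in GENCODE M21 gave whole multiples of 1 step per library for 22176 genes (97.2%, relative tolerance 1e-06), and these whole reads give the depth. Members had between 247 and 84475 reads in a library.

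Genes were tested on log2(TPM + 1) by limma 3.58.1 (R 4.3.3; lmFit, then eBayes with trend=TRUE), fitting the group term alone to the 4 libraries, for 18612 genes with a mean of at least 1 TPM, with Benjamini-Hochberg adjustment over all of them and a threshold of 0.05. It leaves 2 residual degrees of freedom. Fold changes on this scale understate the change of low genes. An exact two-sided permutation test of 2 against 2 cannot go below 0.333 and was not used. Libraries are separate pools of mice, and p-values measure only the spread between these pools. Exon overlap and shared 50-base words were computed from GENCODE M21, and symbols from GENCODE. The fit was also run on simulated reads with the same dispersion for every gene and no difference in composition within a group. The real control libraries differ from each other, so that run does not show how the fit behaves on them. Members and lists were chosen with earlier results of these data known, so lists get counts and medians and no test. All members are named, as are the regulators, and of each other list the 4 genes with the highest mean TPM, except some genes that are not reported here. Alternatives were other pseudocounts, filters and scalings, no trend, a replicate block, voom and each library left out. Tables were handled with Python 3.11.15 and pandas 2.3.3.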

Additional observations from a re-analysis of the deposited data

How the results depend on the processing

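Of the 34 members, 25 kept the direction of their log2 fold change in all 14 alternatives, and 9 changed it in at least 1. With median-ratio scaling the values were -0.12 for Acadl, -0.077 for Acaa1a, -0.19 for Eci1, -0.13 for Decr2 and -0.19 for Pex11a. With quantile normalization they were 0.038 for Cpt1a, -0.081 for Eci1, -0.045 for Decr2 and -0.14 for Pex11a. Without mitochondrially encoded genes in the total they were -0.046 for Eci1 and -0.056 for Pex11a, and with voom on the recovered reads -0.0056 for Eci1 and -0.027 for Pex11a. Leaving out 1 library gave ranges of -0.28 to 0.28 for Cpt1a, -0.058 to 0.15 for Eci1, -0.15 to 0.21 for Pex11a, -0.55 to 0.063 for Acads, -0.35 to 0.058 for Crat, -0.014 to 0.24 for Acadl and -0.36 to 0.021 for Acaa1b. The median over all members was -0.58 with median-ratio scaling, likewise -0.58 for the mitochondrial and -0.59 for the peroxisomal members, and -0.44 over all members without mitochondrially encoded genes. With 1 library left out the median ranged from -0.40 to -0.18 over all members, from -0.40 to -0.18 over the mitochondrial and from -0.47 to -0.20 over the peroxisomal members, the smallest being without control replicate 1 each time. The number of members lower in both HDAC KO-labelled libraries was between 22 and 27 in every alternative. With 1 library left out this pattern is easier to meet, so these counts do not compare directly. It held for 14.3% of all genes with all 4 libraries. Without control replicate 1 it held for 23 members and 35.2% of all genes, and without control replicate 2 for 27 members and 21.3%. The number of genes called by limma was 0 with quantile normalization, without trend and by voom, and between 0 and 2224 with 1 library left out (24 without HDAC KO-labelled replicate 2 and 2224 without control replicate 2), with 0 to 8 members among them. Members called were 0 in every alternative that kept all 4 libraries. The replicate number as a block gave 1 gene called and 0 members, as without it. The differences between replicates 1 and 2 correlated at 0.14 across genes. Their median, in control and HDAC KO-labelled libraries in turn, was -1.14 and -1.18 log2 units for podocyte markers and -1.13 and -1.04 for endothelial markers. For proximal tubule markers it was 0.33 and -0.27. With 2 pairs, and no label that ties the numbers to the 2 experiments, the numbers are not taken to pair the libraries. The causes were not tested, except that leaving out a library leaves 1 residual degree of freedom.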

Other observations

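Lipid synthesis genes, which run against oxidation, had a median log2 fold change of -0.10 over 12 genes, HDAC KO-labelled over control, or -0.01 without control replicate 1 and -0.18 without control replicate 2, and 0 passed limma's threshold (1 lower and 0 higher at an unadjusted p under 0.05). The fatty acid desaturase gene Scd2 was at 147 and 86.0 TPM in HDAC KO-labelled libraries against 131 and 103 TPM in control libraries, and Acly, which makes cytosolic acetyl-CoA, at 69.1 and 72.1 against 71.0 and 65.9 TPM. The malic enzyme gene Me1 was at 45.2 and 63.6 against 153 and 62.7 TPM, and Dgat2, which makes triglyceride, at 52.7 and 53.6 against 119 and 62.4 TPM, so in both the high value was control replicate 1.

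Some lipid genes differed more between the control libraries than between the groups, and these were chosen after their values were seen. Acsm3, a medium-chain synthetase gene, was at 1.16 and 2.59 TPM in HDAC KO-labelled libraries against 101 and 3.75 TPM in control replicates 1 and 2. The fatty acid receptor gene Cd36 was at 35.6 and 30.1 against 159 and 23.4 TPM, and Cyp4a12a, a hydroxylase gene known as male-predominant in mouse kidney, at 10.7 and 5.04 against 147 and 3.63 TPM. Cyp4a14 had the opposite pattern, at 43.4 and 29.1 against 17.6 and 271 TPM. Control replicate 2 is the library with Xist, and the part of the mice's sex or tubule content in these values was not tested.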
